A study of Mus musculus with 8 samples.

Results

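The amino acid transporter genes were taken as all genes of the solute carrier families Slc1, Slc3, Slc6, Slc7, Slc36, Slc38 and Slc43, by a pattern on the gene symbol. The pattern found 64 of the 19938 genes with exactly 1 symbol on the array. It rests on names alone, so it also took in carriers of other substrates (the monoamine carriers Slc6a2, Slc6a3 and Slc6a4, the creatine carrier Slc6a8 and the nucleobase carrier Slc43a3) and 2 genes that are no transporters, Slc7a6os and Slc6a19os, which are named for lying opposite a transporter gene.

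RNA came from primary mammary tumors, each under 1.0 cm across, of FvB mice with the MMTV-Neu genotype. In that model a viral promoter active in mammary epithelium drives the rat homolog of the receptor gene Erbb2. Every animal carried the transgene, so no group lacked it. Flow sorting split each tumor into a fraction of tumor-initiating cells (TIC) and a CD24- fraction that the labels call non-tumor-initiating. Each of the 2 fractions was measured on 4 single-colour arrays (Affymetrix Mouse Gene 1.0 ST). Tumors N251, N260 and N283 gave a pair of arrays each, and N222 and N229, mixed in equal parts to obtain enough cells, gave the last pair. These names follow the sample titles, and the growth protocol lists N250 and N261 in place of N251 and N260. The sources used here name neither the animals' ages nor the markers that gated the TIC. Cd24a, the gene of the sorted antigen, was at 12.06 to 12.50 (log2 intensity) in the TIC arrays and at 10.53 to 12.12 in the CD24- arrays. It was higher in the TIC array of each tumor, the fractions overlapped in the CD24- array of N283, and it was not called (difference 1.11 ± 0.21 SE, adjusted p = 0.0691). Epcam, an epithelial surface antigen, was at 11.99 to 12.19 and 11.06 to 11.99. The mean level of 15 macrophage markers was 6.38 to 6.72 in the TIC arrays and 9.29 to 11.77 in the CD24- arrays.

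Cells take up amino acids through carriers with overlapping substrates. Sodium-driven carriers such as those of the Slc1, Slc6 and Slc38 families accumulate amino acids, and exchangers of the Slc7 family trade one amino acid for another. The exchangers work as pairs of a light chain, which transports, and a heavy chain, Slc3a1 or Slc3a2, which brings it to the membrane. Lysosomal carriers pass amino acids and their availability on to the growth kinase mTORC1. In the mammary gland these carriers also supply milk protein synthesis, and in tumors Slc7a5, Slc1a5 and Slc7a11 are much studied.

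No transporter gene passed the test between fractions. With the tumor as a block (limma), 0 of 64 were called higher and 0 lower in the TIC fraction at an adjusted p under 0.05, where 0.863% and 1.09% of all genes were. Without the block 0 of 64 were called in either direction, where 0.0502% of all genes were called higher and 0.742% lower. With the tumor as a random block Slc1a1 was called higher and Slc7a8 and Slc7a11 lower, 1.56% and 3.12% of the members, where 2.16% and 3.04% of all genes were. The members' shares are near the background. All 64 genes were tested, with no filter on low values, and 5 of them (Slc6a19, Slc7a12, Slc7a13, Slc38a4 and Slc38a11) were below the lower quartile of every array.

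At an unadjusted p under 0.05, 5 transporter genes were higher and 8 lower in the TIC fraction, that is 7.81% and 12.5%, where all genes gave 14.2% and 8.08%. In all 4 tumors 10 were higher and 13 lower, or 15.6% and 20.3%, where all genes gave 23.2% and 11.8%. The arrays of the fractions did not overlap for 2 genes that were higher (Slc1a4 and Slc6a14) and 4 lower (Slc1a3, Slc7a8, Slc7a15 and Slc36a1). These are 3.12% and 6.25%, against 5.19% and 4.68% of all genes. The gap was narrow for Slc1a3 (highest TIC array 6.281, lowest CD24- array 6.282) and Slc7a15 (5.922 and 5.927). Slc7a15 was also below the lower quartile in 3 arrays. A narrow gap was also seen for Slc1a4 (lowest TIC array 7.24, highest CD24- array 7.21) and Slc6a14 (8.04 and 8.02). The median difference (TIC minus CD24-, on the log2 scale) was -0.02 over the 64 genes, 0.05 over 298 other Slc genes and 0.04 over all genes. It turned positive after median centring of the arrays (0.01, with all genes at 0.07) and after quantile normalization (0.002, with all genes at 0.06). Of the 64 genes 3 differed by more than 1 downwards (Slc7a8, Slc6a6 and Slc36a1) and 0 upwards. The plot of cumulative shares sets these distributions side by side.

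**Figure D1:**
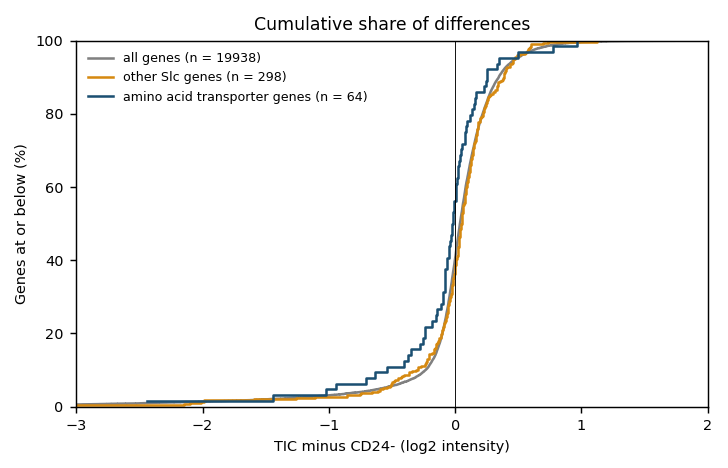
Cumulative share of genes (vertical axis, percent) at or below a given TIC minus CD24- difference (horizontal axis, log2 intensity), for the 64 transporter genes, 298 other Slc genes and all 19938 genes. The medians are -0.02, 0.05 and 0.04, and the transporter genes reach from -2.44 to 0.96.

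The light chains of the Slc7 exchangers held the largest difference. Of 10 measured light chains 4 were lower in all 4 tumors and 0 were higher in all 4, and their median difference was -0.15, with a range of -2.44 to 0.23. Slc7a8, which encodes LAT2, an exchanger of neutral amino acids, stood at 7.73, 8.10, 7.86 and 8.43 in the TIC arrays of N251, N260, N283 and the pool. In the CD24- arrays it stood at 11.76, 10.92, 9.63 and 9.58. Each CD24- array was above every TIC array, and the CD24- arrays of N251 and N260 were the highest. On average Slc7a8 was 5.43-fold lower in the TIC fraction (log2 difference -2.44 ± 0.46 SE, 95% interval -3.58 to -1.31, adjusted p = 0.0673). Within N251, N260, N283 and the pool it differed by -4.03, -2.82, -1.77 and -1.15. Slc7a8 was called in the random-block fit (adjusted p = 0.0139), with array weights (0.0244) and with the block but without N251 (-1.91, adjusted p = 0.0283). It was not called without the block (0.0515), nor with N260 (0.319), N283 (0.202) or the pool (0.0540) left out. Without N260 or without N283, 0 genes of the whole table were called in either direction. The mean of the macrophage markers followed the same order of tumors (-5.13, -4.46, -3.56 and -2.57), and its part in the result was not tested. In sorted bulk samples fewer cells of a type and less RNA per cell cannot be told apart.

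Slc7a11 encodes xCT, which imports cystine, the precursor of glutathione, in exchange for glutamate. Its TIC arrays were at 6.14, 5.85, 5.95 and 6.51 (N251, N260, N283 and the pool) and its CD24- arrays at 7.33, 7.59, 6.45 and 6.84. In N260 and N283 the TIC value lay just above the lower quartile of the array (5.82 and 5.83). The TIC array was the lower one within each tumor, although the TIC array of the pool lay above the CD24- array of N283. The difference was -0.94 ± 0.24 SE (95% interval -1.54 to -0.34, adjusted p = 0.118, and 0.0419 in the random-block fit).

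The gene is a textbook target of ATF4, the transcription factor of the amino acid stress response, which binds amino acid response elements. The core of that element, TGATGNAA, was searched on both strands in the RefSeq promoter sequences (assembly GRCm38.p6, from 250 bases before to 50 after the start), where 47 of the 64 genes had an entry. It was found in 3.97% of all 32851 promoters and in 5 of the 68 promoters of these genes (7.35%), belonging to Slc7a11, Slc7a7, Slc1a4 and Slc6a21. Overlapping entries of Slc7a7 that share the match TGATGCAA count separately among the 5, and not all of them are shown. By gene, 4 of 47 had a match (8.51%), against 4.51% of all 27025 genes with an entry. The 150 bases before the start are shown for the 2 light chains with a match among the 6 genes of the largest consistent negative difference, and for Slc7a8 and Slc1a1, which were called with the random block and have no match in this window. Capitals mark the matches.
Slc7a11 (chr3:50443614-50443763, minus strand): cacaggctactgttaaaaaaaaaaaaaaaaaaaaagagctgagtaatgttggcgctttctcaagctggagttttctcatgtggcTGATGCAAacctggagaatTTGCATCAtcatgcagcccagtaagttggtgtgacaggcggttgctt
Slc7a7 (chr14:54417945-54418094, minus strand): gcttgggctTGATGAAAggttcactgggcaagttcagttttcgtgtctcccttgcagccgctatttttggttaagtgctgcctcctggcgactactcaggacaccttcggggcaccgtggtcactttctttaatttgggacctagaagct
Slc7a8 (chr14:54781887-54782036, minus strand): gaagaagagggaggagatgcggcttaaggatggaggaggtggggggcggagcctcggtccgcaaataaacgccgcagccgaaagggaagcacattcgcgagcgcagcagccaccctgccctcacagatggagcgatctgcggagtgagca
Slc1a1 (chr19:28834985-28835134, plus strand): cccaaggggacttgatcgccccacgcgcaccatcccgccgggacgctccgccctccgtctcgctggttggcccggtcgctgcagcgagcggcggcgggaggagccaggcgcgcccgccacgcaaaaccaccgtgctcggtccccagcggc
Slc7a11 held 2 matches facing opposite ways, whose first bases lie 66 and 47 bases before the start, and Slc7a7 held 1 in this window. The guanine and cytosine content was 42.0% in the window of Slc7a11, 51.3% in that of Slc7a7, 62.7% in that of Slc7a8 and 76.0% in that of Slc1a1. A match describes the letters only, and binding was not measured.

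Slc7a7 and Slc7a6 encode y+LAT1 and y+LAT2, which export cationic amino acids in exchange for neutral ones. Slc7a7 was at 9.84, 9.77, 9.95 and 10.40 in the TIC arrays and at 11.12, 10.37, 10.16 and 10.47 in the CD24- arrays of N251, N260, N283 and the pool. It was lower in the TIC fraction of each tumor, by -1.27 in N251 and -0.07 in the pool, and the fractions overlapped (mean -0.54 ± 0.21 SE, adjusted p = 0.209). Slc7a6 differed by -0.38 ± 0.19 (adjusted p = 0.303), from -1.07 in N251 to 0.08 in the pool.

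Slc7a5 encodes LAT1, the large neutral amino acid exchanger that supplies leucine to many tumors. Its TIC arrays were at 11.97, 12.30, 11.67 and 11.08, and its CD24- arrays at 10.997, 12.18, 11.74 and 11.20. Only in N251 did the arrays of a tumor lie well apart (0.98, against 0.12, -0.06 and -0.12 in N260, N283 and the pool). The mean of 0.23 ± 0.20 SE (95% interval -0.26 to 0.71, adjusted p = 0.535) turned to -0.02 without N251. Of the other light chains, Slc7a15 differed by -0.24, and Slc7a9, Slc7a10, Slc7a12 and Slc7a13 by between -0.06 and 0.02. Slc7a12 and Slc7a13 were below the lower quartile of the array (5.82 to 5.94) in all 8 arrays.

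Slc3a2 encodes the CD98 antigen, the heavy chain of Slc7a5, Slc7a8 and Slc7a11. Its TIC arrays were at 12.35, 12.21, 12.17 and 12.44 and its CD24- arrays at 12.85, 12.44, 12.39 and 12.61. It was lower in the TIC array of each tumor by -0.50, -0.23, -0.22 and -0.17, and the fractions overlapped. The mean of -0.28 ± 0.09 SE was 1.21-fold lower (95% interval -0.49 to -0.07, adjusted p = 0.151). Slc3a1, the heavy chain of kidney and gut, differed by -0.08 ± 0.07 (adjusted p = 0.546).

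Carriers of the Slc1 family went both ways. These are sodium-driven glutamate carriers, and the neutral amino acid exchangers Slc1a4 and Slc1a5. Of 7 measured, 3 had a positive and 2 a negative difference in each of the 4 tumors (median 0.07). Slc1a1 encodes EAAT3, which carries glutamate, aspartate and cysteine. Its TIC arrays were at 7.99, 8.10, 7.33 and 8.14 and its CD24- arrays at 6.74, 7.45, 7.10 and 7.16 (N251, N260, N283 and the pool). It was higher in the TIC array of each tumor, least in N283 (0.23) and most in N251 (1.25), and the TIC array of N283 lay within the CD24- range. On average it was 1.71-fold higher (0.78 ± 0.17 SE, 95% interval 0.35 to 1.20, adjusted p = 0.0906, and 0.0349 in the random-block fit).

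Slc1a5 encodes ASCT2, a glutamine carrier of proliferating cells. Its TIC arrays were at 7.75, 8.09, 7.67 and 7.70 and its CD24- arrays at 8.62, 8.46, 7.96 and 7.80. Its difference was negative in each tumor, the widest being -0.87 (N251) and the narrowest -0.10 (the pool), with overlapping fractions (mean -0.41 ± 0.14 SE, adjusted p = 0.171). Its relative Slc1a4, or ASCT1, a serine and alanine exchanger, was at 7.24 to 7.38 in the TIC arrays and at 6.64, 7.18, 7.21 and 7.17 in the CD24- arrays. The low CD24- array of N251 carried most of its mean difference of 0.25 ± 0.13 SE (adjusted p = 0.307), since the other tumors gave 0.07, 0.17 and 0.06. Slc1a2 differed by 0.25 ± 0.09 (adjusted p = 0.192). Slc1a3, a glial glutamate carrier, differed by -0.25 ± 0.14, with -0.73 in N251 and at most -0.20 in size elsewhere. Slc1a6 and Slc1a7, known from brain and retina, differed by 0.01 and 0.07.

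**Figure D2:**
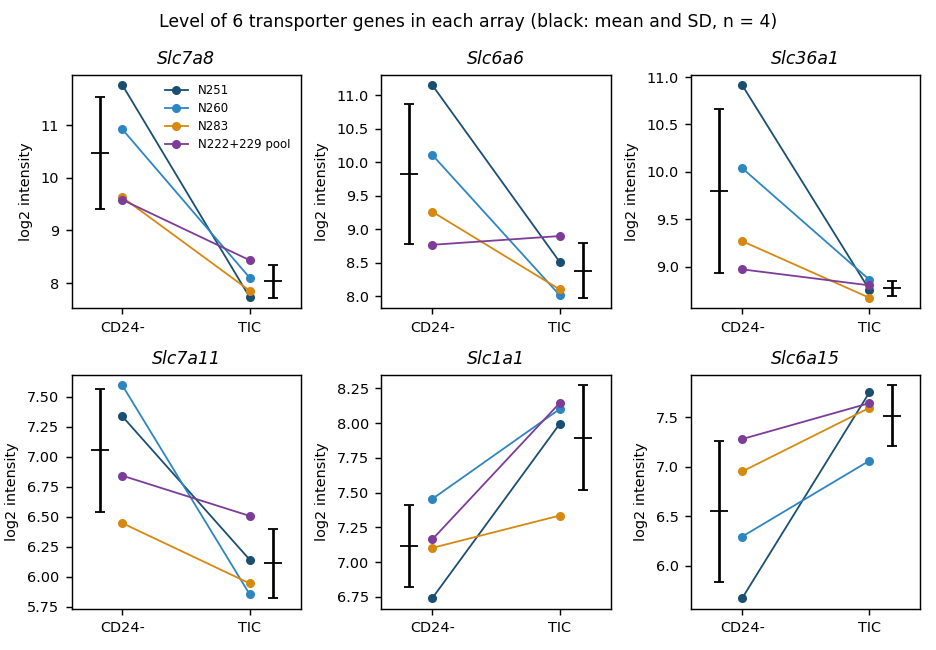
Log2 intensity (vertical axes, which do not start at 0) of 6 transporter genes in the CD24- and TIC arrays, with a line joining the arrays of a tumor or pool and black marks for the mean and SD of 4 arrays. Slc7a8, Slc36a1 and Slc7a11 are lower in the TIC array of all 4 pairs, Slc6a6 in 3 of 4, and Slc1a1 and Slc6a15 are higher in all 4.

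Genes grouped as cationic amino acid carriers, some of which import arginine and lysine, showed no difference detectable with 4 pairs. Of 5 measured, 0 had the same sign in all 4 tumors, and the median difference was 0.02. Slc7a1, the widespread CAT1, had means of 8.83 ± 0.13 and 8.80 ± 0.24 (TIC and CD24-, SD, n = 4), with a 95% interval of the difference from -0.20 to 0.27. Slc7a2, whose product feeds arginine to nitric oxide synthesis and arginase in activated macrophages, had means of 6.15 ± 0.15 and 6.17 ± 0.15, with an interval from -0.29 to 0.23. Neither had a stable sign, as each changed sign under several alternative settings. Slc7a4 differed by 0.26 ± 0.16 (0.83 in N251), Slc7a3 by -0.19 ± 0.09 and Slc7a14 by 0.02.

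Among the 11 amino acid carriers of the Slc6 family, 4 had a positive and 2 a negative difference in each tumor (median -0.04). Slc6a15 encodes B0AT2, a carrier of branched-chain amino acids and proline known from neurons. It was at 7.75, 7.06, 7.59 and 7.64 in the TIC arrays and 5.67, 6.29, 6.95 and 7.28 in the CD24- arrays of N251, N260, N283 and the pool. The TIC arrays were alike apart from N260, and the difference ran from 2.08 in N251 through 0.77 and 0.64 to 0.36 in the pool. On average it was 1.95-fold higher (0.96 ± 0.28 SE, 95% interval 0.26 to 1.66, adjusted p = 0.143). Without N251 it was 0.59 and was called (adjusted p = 0.0395). Without N260, N283 or the pool it was not called (0.38, 0.28 and 0.15). Leaving out N251 also took the calls of the whole table from 172 higher and 218 lower to 360 and 480. The CD24- value of Slc6a15 in N251, 5.67, lay below the lower quartile of that array (5.94).

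Slc6a14, which encodes a broad carrier of neutral and cationic amino acids found in epithelia, was at 8.07, 8.09, 8.36 and 8.04 in the TIC arrays and 6.72, 7.85, 8.02 and 7.96 in the CD24- arrays. All TIC arrays lay above all CD24- arrays, but by 0.08 to 0.33 within N260, N283 and the pool and by 1.35 in N251 (mean 0.50 ± 0.22 SE, adjusted p = 0.249). Slc6a17, a vesicular carrier of neutral amino acids in neurons, differed by 0.35 ± 0.11 (0.47, 0.59, 0.28 and 0.07, adjusted p = 0.148). Slc6a9, the glycine carrier GlyT1, differed by 0.33 ± 0.12 (0.72, 0.31, 0.28 and 0.02, adjusted p = 0.204). The remaining members of this group, among them the kidney carriers Slc6a18, Slc6a19, Slc6a20a and Slc6a20b, differed by between -0.16 and 0.09.

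Slc6a6 encodes the taurine carrier. It was at 8.51, 8.02, 8.10 and 8.90 in the TIC arrays and 11.15, 10.11, 9.26 and 8.77 in the CD24- arrays. The CD24- array of N251 was the highest and that of the pool lay within the TIC range. The difference was -2.64, -2.09, -1.16 and 0.13 in N251, N260, N283 and the pool (mean -1.44 ± 0.44 SE, 2.71-fold lower, adjusted p = 0.152). The other measured carriers of its group were the GABA and betaine carriers Slc6a11, Slc6a12 and Slc6a13, at 0.16, -0.02 and 0.05, and the creatine carrier Slc6a8, at 0.13 ± 0.17. Slc6a11 was higher in all 4 tumors.

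Slc36a1 encodes a proton-coupled carrier that moves small neutral amino acids out of lysosomes and acts in mTORC1 signalling. Its TIC arrays were close together at 8.75, 8.86, 8.67 and 8.80, whereas its CD24- arrays ran from 10.91 in N251 through 10.04 and 9.27 to 8.97 in the pool. No TIC array reached a CD24- array. The mean difference of -1.03 ± 0.32 SE (2.04-fold lower, 95% interval -1.81 to -0.24, adjusted p = 0.154) took in -2.16 in N251 and -0.17 in the pool. Slc36a2, its neighbour in the RefSeq gene order, differed by -0.08, Slc36a3, next to Slc36a2, by 0.10, and Slc36a4 by less than 0.01.

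Of 11 Slc38 carriers, which move glutamine and other neutral amino acids with sodium, 2 had a positive and 2 a negative difference in each tumor (median -0.01). Slc38a1, a glutamine importer, was at 7.79, 7.76, 8.35 and 8.64 in the TIC arrays and at 9.63, 8.75, 8.53 and 8.44 in the CD24- arrays. The sign turned between tumors, with -1.84 for N251 and 0.20 for the pool (mean -0.70 ± 0.33 SE, adjusted p = 0.279). A dimmer row of the same gene gave -0.29. Slc38a6 had a like course (-1.63, -0.82, -0.28 and 0.20, mean -0.63 ± 0.29).

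Slc38a2, the carrier that cells induce when amino acids are short, stood at 11.72, 11.94, 11.73 and 11.67 in the TIC arrays and 11.68, 11.86, 11.67 and 11.53 in the CD24- arrays. The differences of 0.04, 0.07, 0.06 and 0.14 were all positive (mean 0.08 ± 0.07 SE, 95% interval -0.09 to 0.25, adjusted p = 0.541), and cyclic loess turned the mean to -0.03. Slc38a9, the lysosomal arginine sensor of mTORC1, differed by -0.24 ± 0.10 (negative in all 4 tumors, adjusted p = 0.228), with -0.16 in a dimmer row. Slc38a1 and Slc38a2 are neighbours in the genome, at -0.70 and 0.08. The other Slc38 genes apart from Slc38a3 differed by between -0.15 and 0.15.

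In the Slc43 family, Slc43a1 and Slc43a2 encode carriers of branched-chain and other large neutral amino acids without sodium, and Slc43a3 the nucleobase carrier. Slc43a2, or LAT4, was at 9.30, 9.17, 9.45 and 9.83 in the TIC arrays and 9.96, 9.47, 9.40 and 10.34 in the CD24- arrays. It was lower in 3 of 4 tumors (mean -0.35 ± 0.13 SE, adjusted p = 0.197). Slc43a1, or LAT3, stayed between 6.27 and 6.44 in all 8 arrays (difference -0.04 ± 0.07, with a sign that quantile normalization turned). Outside these groups, the monoamine carriers Slc6a3 and Slc6a4, the opposite-strand genes Slc7a6os and Slc6a19os, and Slc6a21 differed by -0.01, -0.10, -0.05, 0.12 and -0.01.

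**Figure D3:**
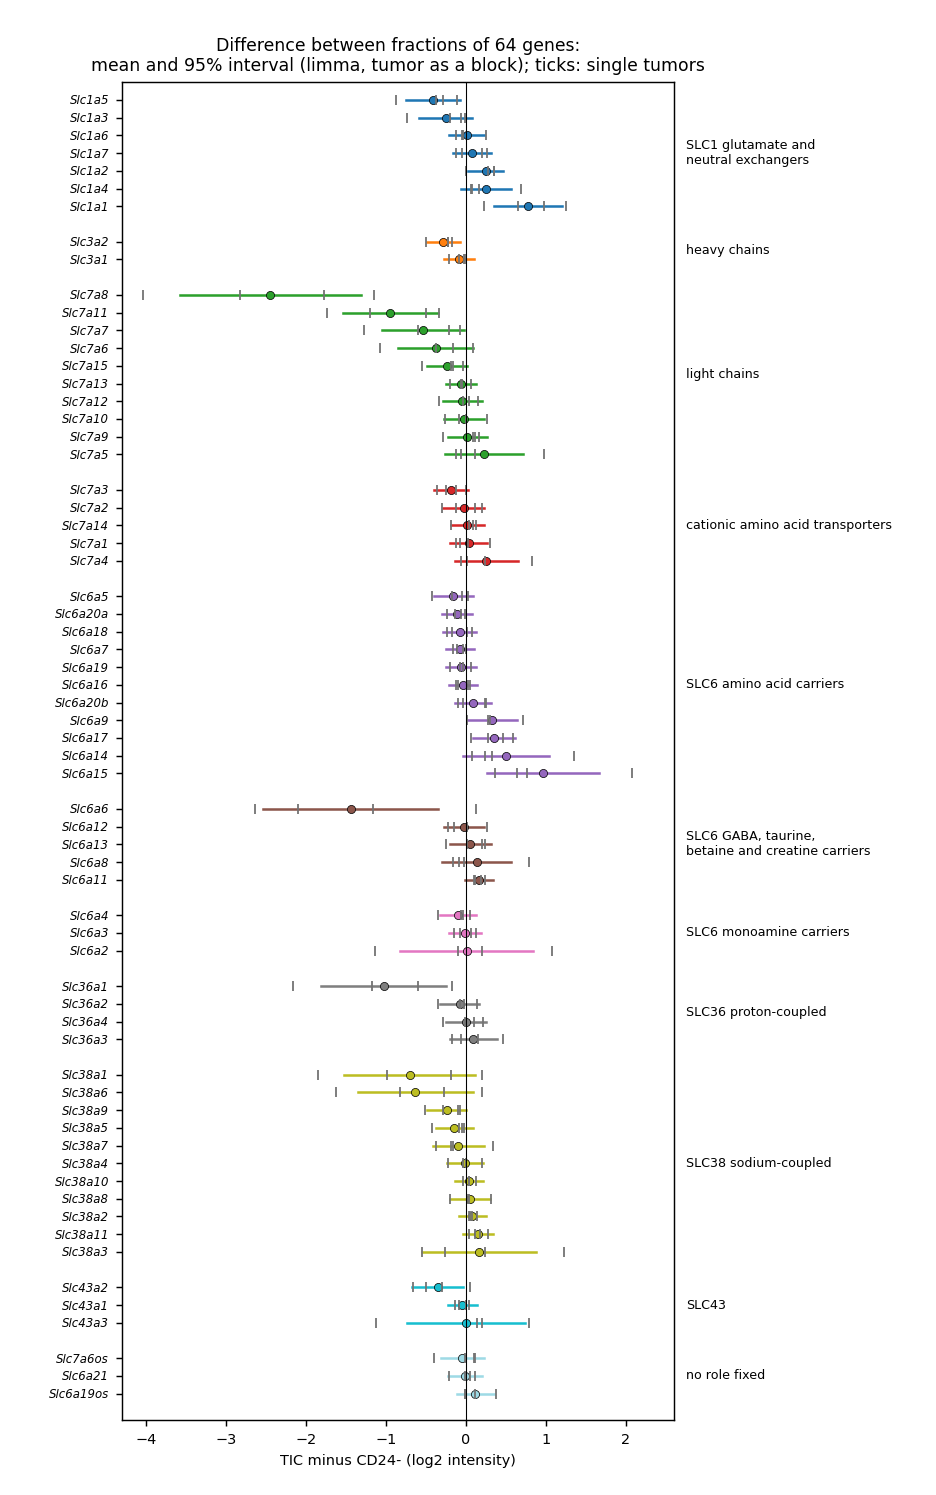
TIC minus CD24- difference (horizontal axis, log2 intensity) of each of the 64 genes, grouped by role. Points are means, bars are 95% intervals from limma with the tumor as a block, not adjusted for the number of genes, and grey ticks are the 4 tumors or pools. Slc7a8 (-2.44), Slc6a6 (-1.44) and Slc36a1 (-1.03) lie farthest to the left and Slc6a15 (0.96) and Slc1a1 (0.78) farthest to the right.

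The level of some carriers varied widely between tumors. The mean of both fractions ranged over more than 1 between tumors for 7 of the 64 genes (10.9%, and 6.05% of all genes). For Slc7a8 and Slc6a6 among them the mean difference between fractions (-2.44 and -1.44) was larger in size than the range (1.003 and 1.15). For Slc6a2, Slc43a3, Slc38a3, Slc6a9 and Slc7a5 it was smaller. A range spans the extremes and a mean difference averages signed values, so their sizes are not directly comparable. Slc6a2, the noradrenaline carrier, had the widest range, 2.88. It was at 8.28, 7.69, 9.59 and 9.90 in the TIC arrays and 7.202, 7.49, 9.68 and 11.04 in the CD24- arrays, so both fractions of N283 and the pool were high and both of N251 and N260 low. Its difference between fractions was 1.08 in N251 and -1.13 in the pool, with a mean of 0.01. Slc38a3, a glutamine carrier best known from liver, had a range of 1.28, with CD24- arrays at 9.65, 10.51, 11.11 and 11.83 and TIC arrays between 10.74 and 11.27. Slc43a3 ranged over 1.46 and was highest in N260, at 10.14 in the TIC and 9.996 in the CD24- array. Slc6a2 and Slc43a3 were chosen for these ranges after their values were seen, as was Slc38a3.

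Spread was larger in the CD24- arrays. Of the 64 genes 76.6% had the larger SD there, where 65.3% of all genes did. The median SD was 0.14 in the TIC and 0.19 in the CD24- fraction, and 0.15 and 0.20 over all genes. For 36 of the 64 genes the largest of the 4 differences, by size, was that of N251 (56.2%, and 51.0% of all genes). Of the 13 genes that were lower in all 4 tumors 9 had it there (69.2%, and 70.3% of all genes lower in all 4), and of the 10 that were higher 5 did (50%, and 64.1%).

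Leukocyte markers differed between the fractions in the same tumors. All 15 macrophage markers were lower in the TIC fraction of each tumor and 12 were called. Of the 36 transporter genes with a negative mean difference 10 ranked the tumors in the order of the macrophage mean (27.8%, and 20.7% of all genes with a negative mean difference). Slc7a8, Slc6a6, Slc36a1, Slc7a7, Slc1a5 and Slc3a2 were among them, and Slc7a11, with its largest difference in N260, was not. Of 14 pan-leukocyte markers 7 were called lower, and of 17 T and NK cell markers 5 were. For T and NK cells the mean differences were -3.15, -2.40, -1.89 and -0.999, and the mean levels reached at most 6.24 in the TIC arrays and 9.39 in the CD24- arrays. Csf1r, the receptor that defines macrophages, was at 6.28 to 6.51 in the TIC arrays. Of 9 neutrophil markers 1 was called lower, and of 8 B cell markers 1 was. The part of leukocyte RNA in the transporter differences was not tested.

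For luminal epithelial markers the mean differences were 0.96, 0.31, 0.05 and 0.12 (N251, N260, N283 and the pool), with 0 of 12 called. Slc6a15, Slc6a14 and Slc1a1 also had their largest difference in N251. They were among 5 such genes of the 10 transporter genes higher in all 4 tumors (50%, and 64.1% of all genes higher in all 4). Slc1a1 differed more in the pool (0.98) than in N260 (0.65), unlike the luminal mean. The part of epithelial RNA in these 3 genes was not tested. The basal and myoepithelial list had a mean of 0.28 and a median of 0.07, with Oxtr, the oxytocin receptor gene, called higher of 10 (1.21) and the keratin genes Krt5 and Krt14 at 0.03 and -0.02. The fibroblast list had a mean of -0.53 and a median of -0.19. Of its 10 genes Thy1, which T cells also express, was called lower (-1.73), Dcn was at -1.55 and Fap at -1.05, and the collagen genes Col1a1, Col1a2 and Col3a1 lay between -0.18 and -0.10. Of the endothelial list 0 of 10 were called (mean -0.26). Of the red cell list 2 of 6 markers were measured (mean 0.05, 0 called).

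**Figure D4:**
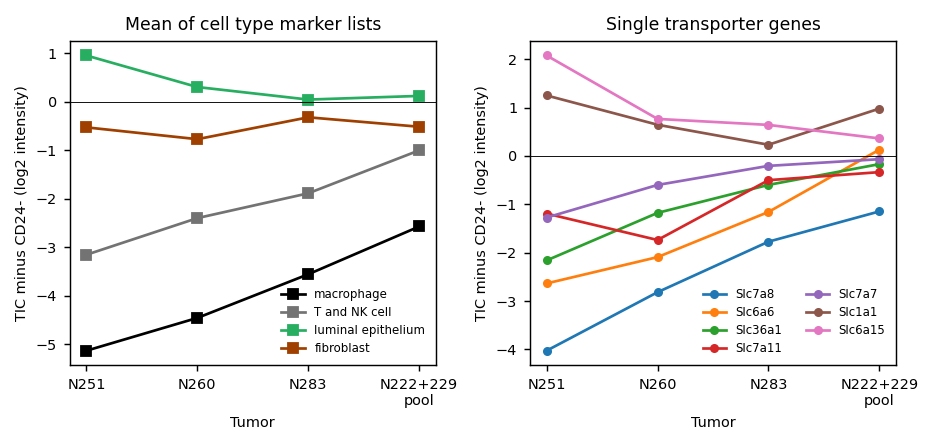
TIC minus CD24- difference (vertical axes, log2 intensity) in each tumor or pool, as the mean of 4 marker lists (left) and for 7 transporter genes (right), with lines joining the values of a list or gene. The macrophage list runs from -5.13 in N251 to -2.57 in the pool, and Slc7a8 from -4.03 to -1.15.

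Genes around the transporters were read from lists of the amino acid pathways. Of 21 other amino acid and peptide carriers 0 were called, with a median difference of -0.01. The lowest p was that of Slc15a3, a peptide and histidine carrier of lysosomes, at 6.49, 6.83, 6.71 and 6.71 in the TIC arrays and 10.04, 9.19, 8.23 and 7.67 in the CD24- arrays. No TIC array reached a CD24- array, and the difference of -2.10 ± 0.41 SE had an adjusted p = 0.0730 (0.0187 with the random block). In the random-block fit Slc25a13, the mitochondrial aspartate and glutamate carrier, was called too (0.41, adjusted p = 0.0441).

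The amino acid stress response of GCN2 and ATF4 showed 0 of 17 called genes and a median of 0.03. Its lowest p was that of Atf3, a stress-induced transcription factor, at -1.76 ± 0.41 (adjusted p = 0.100, and 0.0137 without N251). Without N260, N283 or the pool Atf3 had an adjusted p of 0.32, 0.21 and 0.16. Of 31 genes of amino acid sensing by mTORC1 0 were called (median 0.01). Mios, a subunit of the GATOR2 complex, had the lowest p at 0.38 ± 0.09 (adjusted p = 0.113).

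The medians of the stress response and sensing lists, and of the glutathione list given next, turned negative under cyclic loess, and that of the other carriers turned positive under median centring and quantile normalization.

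The remaining lists hold genes of amino acid use. The median of all genes was 0.04, -0.002 under cyclic loess and 0.11 with dim genes left out. All 17 measured aminoacyl-tRNA synthetases had a positive mean difference, between 0.08 and 0.34, where 8080 of all 19938 genes had a negative one. That background includes dim genes, whereas none of the 17 was below the lower quartile of any array. Of the 17, 12 were higher in all 4 tumors, where 23.2% of all genes were, and 0 were called. Their median was 0.23, and 0.11 under cyclic loess, where 14 of 17 were positive. By tumor it was 0.51, 0.19, 0.15 and 0.05 in N251, N260, N283 and the pool (all genes 0.07, 0.08, 0.01 and 0.01). Vars, which charges valine, had the lowest p, at 0.29 ± 0.08 (adjusted p = 0.125). Of 11 genes of serine, glycine and proline synthesis 0 were called (median 0.21, and 0.09 under cyclic loess). Psat1, the phosphoserine aminotransferase, had the lowest p, at 0.53 ± 0.11 (adjusted p = 0.0742, and 0.0342 without N251). Without N260, N283 or the pool Psat1 had an adjusted p of 0.32, 0.22 and 0.13. Shmt1, a serine hydroxymethyltransferase, was called with the random block (0.55, adjusted p = 0.0381).

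Of 12 glutamine and glutamate enzymes 0 were called (median 0.22, and 0.10 under cyclic loess). Ctps, which uses glutamine to make CTP, was at 0.54 ± 0.10 (adjusted p = 0.0626). With the random block Ctps and Gfpt2, which starts hexosamine synthesis, were called higher (0.54 and 0.88) and Glul, glutamine synthetase, lower (-1.80, adjusted p = 0.0246). Of 11 genes of cystine use and glutathione synthesis 0 were called (median 0.05, and -0.07 under cyclic loess), with the cystathionine lyase gene Cth at 0.35 ± 0.10 (adjusted p = 0.130). Of 15 branched-chain and arginine enzymes 0 were called (median 0.13, and 0.01 under cyclic loess, where 9 of 15 were positive), with Ivd, a leucine breakdown enzyme, at 0.29 ± 0.08 (adjusted p = 0.119). Slc25a13, Shmt1, Gfpt2 and Glul were named after their values were seen.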

How the data were processed

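The deposited values are log2 intensities per transcript cluster, made by the authors with RMA and Partek per the submitters' processing notes. The sources used here give no version, setting, genome build or background measure. Of 35556 rows, 21789 carried exactly 1 symbol in the platform annotation, and a gene was represented by its brightest row (19938 genes). Of the 64 members, Slc38a1 and Slc38a9 had a further row. Symbols were checked by gene identifier against RefSeq GRCm38.p6, which renamed 0 rows.

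Log2 differences, TIC minus CD24-, came from lmFit and eBayes of limma 3.58.1 (R 4.3.3) over all genes and 8 arrays with the tumor as a fixed block, since both fractions came from the same tumor per the labels. Across genes, the 2 arrays of a pair deviated together from their fractions' means, with correlations of 0.322, 0.435, 0.300 and 0.557 in N251, N260, N283 and the pool. Calls needed an adjusted p under 0.05 (Benjamini-Hochberg over all 19938 genes). P-values and SE rest on the spread over 4 pairs, which eBayes draws toward a variance shared over all genes. For genes that vary little, the shared variance weighs heavily: Slc38a2 had an SD over tumors of 0.04 but an SE of 0.07. The 64 intervals are not adjusted. The fit was tested on simulated data in which a changed gene shifted by the same amount in every tumor. Differences in the real arrays varied with the tumor, so that test does not speak for them. No 2 arrays were duplicates (highest correlation 0.994).

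The members and lists were chosen with earlier results of these data known. Genes were named by a rule: members called in any of the fixed, random or no-block fits, the 6 largest differences in each direction with 1 sign in all 4 tumors, and 20 fixed members; in each pathway list the gene of lowest p. Members outside the rule are named to complete their group, and Cd24a to check the sort.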

Additional observations from a re-analysis of the deposited data

Results flagged for a closer look

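Among 46 groups of 4 arrays of the named transporter genes, 5 had a single array far from the other 3, where chance flags about 1 in 20 groups. In the CD24- fraction the array of N251 was low for Slc1a4, at 6.64 (others 7.17 to 7.21), and for Slc6a14, at 6.72 (others 7.85 to 8.02). In the TIC fraction Slc6a14 was high in N283, at 8.36 (others 8.04 to 8.09), Slc7a2 was high in N260, at 6.37 (others 6.05 to 6.10), and Slc38a9 was high in the pool of N222 and N229, at 9.43 (others 9.04 to 9.08).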

How the results depend on the processing

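Against 0 transporter genes called higher and 0 lower, the tumor as a random block gave 1 higher and 2 lower, array weights gave 0 and 1, and leaving out each tumor gave 0 to 1 of either (without N251, Slc6a15 higher and Slc7a8 lower). Without a replicate block, paired arrays ignored, both counts were 0, as under the other settings. Of 23 named genes 18 kept their sign in every setting run for them, 5 of these with no value where dim genes were left out. Slc7a1 turned to -0.010 with array weights, -0.084 with cyclic loess and -0.0095 with quantile normalization (-0.056 to 0.087 without single tumors). Slc7a2 turned to 0.040 with array weights, 0.0057 with median centring and 0.035 with quantile normalization (-0.10 to 0.063 without single tumors). Slc7a5 ranged from -0.022 to 0.34 without single tumors. Slc38a2 turned to -0.031 with cyclic loess and Slc43a1 to 0.015 with quantile normalization. The fit without block and without N251, added after seeing the data, turned Slc7a1 to -0.056, Slc7a2 to 0.063 and Slc7a5 to -0.022. With the block kept, leaving out N251 gave the same values, since dropping the block leaves the mean of paired differences unchanged. What set N251 apart, and the cause of the other turns, were not tested.

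The pathway lists were recomputed under 3 scalings chosen after seeing the data. Over all genes 172 were higher and 218 lower. These became 10 and 148 without the block, 430 and 606 with the random block, 445 and 572 with array weights, 63 and 88 without dim genes, 84 and 120 with cyclic loess, 130 and 115 with quantile normalization, 0 and 2 with all rows in the fit, 1 and 118 without both block and N251, and 0 and 0 at an adjusted p under 0.01. They were 360 and 480 without N251, 74 and 299 without the pool, and 0 and 0 without N260 or without N283.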
